A study of Coturnix japonica with 20 samples.

Results

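The genes described here are 5 that serve protein folding in the endoplasmic reticulum: HSPA5 (gene 107321942), HSP90B1 (gene 107314741), CRELD2 (gene 107308277), PDIA4 (gene 107309418) and XBP1 (gene 107321230). They were chosen by name, by their NCBI Coturnix japonica symbols, from the 16066 genes of a count table in which the coding sequences of a gene were summed. Earlier results of these data were known when the 5 genes and the gene lists below were chosen. Counts of calls among them beside those of all genes are therefore a description and no test. All 5 passed the filter on low counts that left 13501 genes for testing. The table came from RNA sequencing of the left liver lobe of 20 Japanese quail embryos at embryonic day 9. Each egg had received 10 µl into the air cell at embryonic day 0, before incubation at 37 °C and 60% humidity. The 4 EE2 male and 6 EE2 female embryos were exposed to 3.33 µg of ethinylestradiol (EE2) per g of egg, an estrogen made for medicine, and the 5 solvent male and 5 solvent female embryos received DMSO alone. The design sets the response to EE2 in one sex beside that in the other. Replicate numbers below are those of the labels. How the sex of an embryo was determined, and whether embryos were siblings, is not stated in the labels, so p-values measure the spread between embryos as labelled.

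Secreted and membrane proteins are folded in the endoplasmic reticulum by chaperones, by enzymes that form and rearrange disulfide bonds, and by a quality control that removes proteins that fail to fold. When unfolded protein builds up there, sensors in the membrane start the unfolded protein response, which raises transcription of chaperone genes. Liver is a secretory organ, and in egg-laying vertebrates estrogen makes it produce large amounts of yolk precursor protein.

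In female embryos all 5 genes rose, beside 10.2% of the 13501 genes called higher and 10.1% called lower. Their mean level was 2.50 times the solvent mean for CRELD2, 2.07 for HSPA5, 1.80 for HSP90B1, 1.44 for PDIA4 and 1.32 for XBP1. In males the means of the EE2 group were 1.16 to 1.70 times the solvent means, and 1 of the 5, CRELD2, passed the test and rose, beside 2.24% of all genes called higher and 1.03% called lower. A gene is called where the Benjamini-Hochberg adjusted p of edgeR's quasi-likelihood test over all genes is under 0.05. The female and male responses were not shown to differ for any of the 5, beside 0.259% of all genes with a higher effect in females and 0.8% with a lower one. These backgrounds moved with single embryos and with the tool. In males 441 genes passed with all embryos, 647 without EE2 male 3, 254 without EE2 male 4, 234 without EE2 male 5 and 768 with DESeq2. For the difference between the sexes 143 genes passed with all embryos, 24 without EE2 male 3, 21 without EE2 male 4 and 454 with DESeq2.

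Levels below are in CPM, the estimated count of a gene scaled to a library total common to all libraries, with trimmed-mean (TMM) scaling of the totals. They are not divided by transcript length, so levels of different genes are not compared. Libraries held 26776988 to 32119466 estimated counts, apart from solvent female replicate 9 with 15298506. The lowest count of any of the 5 genes in any library was 1506, for XBP1 in that library. The first principal component of log2 CPM, with 29.4% of the variance, lay between 22.45 and 44.1 in 9 EE2 libraries and between -41.6 and -26.4 in the solvent libraries, and EE2 male replicate 3 lay between them at -1.45. Calls of the 5 genes that changed without EE2 male replicate 3 or solvent female replicate 9 are given with and without them. In bulk tissue, fewer cells of a type and less RNA per cell cannot be told apart.

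HSPA5 encodes BiP, the Hsp70 chaperone of the endoplasmic reticulum, which binds hydrophobic stretches of unfolded chains and, in mammals, also holds the stress sensors inactive. In EE2 females its level had a lowest value of 1113, a median of 1274 and a highest of 2226 CPM. In solvent females it was 828, 741, 699, 638 and 685 CPM in replicates 3, 5, 6, 9 and 10. The groups did not overlap, since the lowest EE2 female stood above the highest solvent female, which was so for 5.99% of all genes tested. The mean was 1489 ± 442 CPM in EE2 females and 718 ± 71.5 CPM in solvent females (SD, n = 6 and 5), a log2 fold change of 1.05 (SE 0.177, edgeR adjusted p = 0.00032). In EE2 males the level was 686, 1220.05, 1290.3 and 1241 CPM in replicates 3, 4, 5 and 6. In solvent males it was 803, 685, 725, 748 and 857 CPM in replicates 1, 2, 4, 7 and 8. Of the EE2 males, 3 stood above every solvent male, and replicate 3 lay at the lower end of the solvent range. Every EE2 male stood above every solvent male for 3.35% of all genes tested. The male log2 fold change was 0.54 (SE 0.192, edgeR adjusted p = 0.144), and without EE2 male replicate 3 it was 0.71 and passed (adjusted p = 0.0224).

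HSP90B1 encodes GRP94, the Hsp90 chaperone of the same compartment, which acts on a narrower set of clients than BiP. Values per embryo are given in the same order of replicates from here on. EE2 females had a lowest level of 1239, a median of 1936 and a highest of 3105 CPM, against 1222, 1204, 1167, 963 and 1216 CPM in solvent females. These groups were separated by a small gap, between EE2 female replicate 8 and solvent female replicate 3, while the other EE2 females lay well above it. Means were 2078 ± 650 CPM in EE2 females and 1155 ± 109 CPM in solvent females (SD, n = 6 and 5), with a log2 fold change of 0.85 (SE 0.176, edgeR adjusted p = 0.00187). EE2 males had 1247, 1845, 1787 and 1929.6 CPM, against 1321, 1055, 1130.2, 1084 and 1361 CPM in solvent males. Replicate 3 was the single EE2 male inside the solvent range. The male log2 fold change of 0.52 (SE 0.191) did not pass (edgeR adjusted p = 0.163).

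CRELD2 encodes a disulfide-related folding factor of the endoplasmic reticulum whose gene responds to unfolded protein in mammalian cells. Its level in EE2 females had a lowest value of 216, a median of 285 and a highest of 466 CPM. Solvent females had 135, 130.2, 115, 109.7 and 121 CPM. No EE2 female came near the solvent range. The mean was 306 ± 84.6 CPM in EE2 females and 122 ± 10.6 CPM in solvent females (SD, n = 6 and 5), and the log2 fold change of 1.32 (SE 0.174, edgeR adjusted p = 2.73e-05) was the highest of the 5 genes. EE2 males had 149, 260.0, 228 and 229.7 CPM, against 155, 103, 121, 106 and 152 CPM in solvent males. Replicate 3 again lay inside the solvent range, below solvent male replicates 1 and 8, and the other 3 EE2 males stood clear of it. The means were 217 ± 47.3 CPM in EE2 males and 128 ± 24.7 CPM in solvent males (SD, n = 4 and 5), a rise of 0.77 on the log2 scale (SE 0.186, edgeR adjusted p = 0.0254). The call held in 14 of 20 fits that each left out 1 embryo, and was lost without EE2 male 4, 5 or 6 or without solvent male 2, 4 or 7 (log2 fold changes 0.67 to 0.75, adjusted p between 0.0612 and 0.104). It was also lost when male libraries alone were fitted (0.78, edgeR adjusted p = 0.0693).

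PDIA4 encodes ERp72, a protein disulfide isomerase with several thioredoxin-like domains. In EE2 females its level had a lowest value of 392, a median of 705 and a highest of 967 CPM, against 516, 499.7, 515, 382 and 472 CPM in solvent females. Of the 6 EE2 females, 5 stood above every solvent female, and replicate 8 lay at the low end of the solvent range. Means were 685 ± 199 CPM in EE2 females and 477 ± 56.3 CPM in solvent females (SD, n = 6 and 5), with a log2 fold change of 0.52 (SE 0.165, edgeR adjusted p = 0.0305). That call was lost without EE2 female 1, 7 or 9 or without solvent female 9 or 10 (0.40 to 0.52, adjusted p between 0.0577 and 0.0802, edgeR), and when female libraries alone were fitted (0.52, adjusted p = 0.0724). EE2 males had 553, 748, 625 and 729 CPM, against 510.2, 390.0, 445, 416 and 488 CPM in solvent males. PDIA4 was the one gene of the 5 for which all 4 EE2 males, replicate 3 included, stood above every solvent male. Its male log2 fold change of 0.56 (SE 0.181) was close to the female one, but did not pass (edgeR adjusted p = 0.102). It passed without EE2 female replicate 8 (0.56, adjusted p = 0.0295), when male libraries alone were fitted (0.57, adjusted p = 0.0491) and with DESeq2 (0.57, adjusted p = 0.042).

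XBP1 encodes a transcription factor of the unfolded protein response. In other vertebrates the sensor IRE1 removes a short intron from its mRNA, and the protein made from the spliced form activates chaperone and degradation genes. The count table holds 1 coding sequence for XBP1, so spliced and unspliced mRNA cannot be told apart here. EE2 females had a lowest level of 118, a median of 124 and a highest of 137 CPM, against 96.2, 112, 91.4, 99.0 and 79.4 CPM in solvent females. The groups did not overlap and the EE2 females lay within a narrow band. The mean was 127 ± 7.66 CPM in EE2 females and 95.6 ± 11.9 CPM in solvent females (SD, n = 6 and 5), a log2 fold change of 0.41 (SE 0.0903, edgeR adjusted p = 0.00319). EE2 males had 90.6, 112, 109.6 and 124 CPM, against 82.8, 99.5, 103, 87.3 and 97.8 CPM in solvent males. Replicate 3 fell inside the solvent range and the other 3 lay just above it. The male log2 fold change was 0.21 (SE 0.0992, edgeR adjusted p = 0.279).

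**Figure D1:**
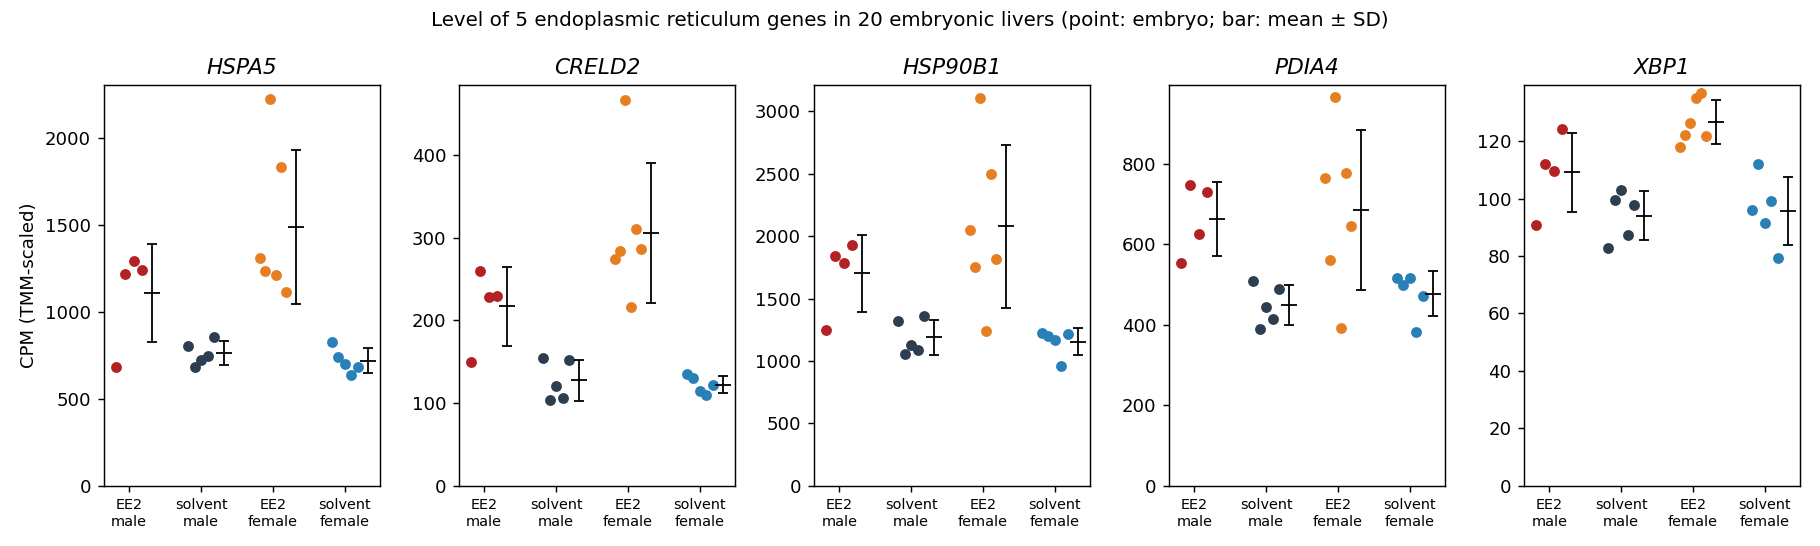
Level of each gene in every embryo, in CPM on a linear axis from 0, for EE2 males (n = 4), solvent males (n = 5), EE2 females (n = 6) and solvent females (n = 5); points are embryos, and the bars beside them are the mean ± SD. The 6 EE2 females lie above every solvent female in 4 of the panels, and in the PDIA4 panel 1 EE2 female, at 392 CPM, lies within the solvent range.

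Averaged over the sexes with equal weight, all 5 rose, where 10.3% of all genes were called higher and 10.3% lower. The averaged log2 fold changes were 1.04 for CRELD2 (SE 0.127, adjusted p = 8.9e-06), 0.80 for HSPA5 (SE 0.13, adjusted p = 0.000231) and 0.68 for HSP90B1 (SE 0.129, adjusted p = 0.000884). They were 0.54 for PDIA4 (SE 0.123, adjusted p = 0.00373) and 0.31 for XBP1 (SE 0.067, adjusted p = 0.00261), all from edgeR. The 5 averaged calls held in all 20 fits that left out 1 embryo, as did the female calls of HSPA5, CRELD2, HSP90B1 and XBP1. Every EE2 female stood above every solvent female for 4 of the 5, beside 5.99% of all genes tested. Every EE2 male stood above every solvent male for 1 of the 5, beside 3.35% of all genes tested. The male and female comparisons share no library, and the averaged comparison is made of both. All of them come from the same fit with a shared estimate of spread, so calls in the sexes are not independent.

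The response was set against sex directly. The female minus the male log2 effect of EE2 was 0.51 for HSPA5 (95% interval -0.03 to 1.06, adjusted p = 0.387) and 0.56 for CRELD2 (0.03 to 1.09, adjusted p = 0.317). It was 0.33 for HSP90B1 (-0.21 to 0.87, adjusted p = 0.614), -0.04 for PDIA4 (-0.55 to 0.47, adjusted p = 0.961) and 0.19 for XBP1 (-0.09 to 0.47, adjusted p = 0.568). None passed in edgeR, in DESeq2 or in limma voom. In edgeR the unadjusted p was under 0.05 for 1 of the 5, CRELD2, and for 14.1% of all genes. The intervals of HSPA5 and CRELD2 reach past 1 on the log2 scale, so effects of equal size in the sexes are not shown.

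Between EE2 females and EE2 males, the log2 difference was 0.50 for CRELD2 (95% interval 0.12 to 0.88, edgeR adjusted p = 0.111), 0.42 for HSPA5 (0.03 to 0.82, adjusted p = 0.192) and 0.22 for XBP1 (0.01 to 0.42, adjusted p = 0.199). HSP90B1 differed by 0.29 (-0.10 to 0.68, adjusted p = 0.400) and PDIA4 by 0.04 (-0.32 to 0.41, adjusted p = 0.922). None of the 5 passed by edgeR, DESeq2 or limma voom, beside 2.21% of all genes called higher and 4.25% called lower in EE2 females. In edgeR 3 of the 5 had an unadjusted p under 0.05, as did 21.1% of all genes. The number of all genes called was 873, against 446 without EE2 male 3 and 1311 with DESeq2. Solvent females and solvent males lay close together, with log2 differences between -0.09 for HSPA5 and 0.08 for PDIA4 (edgeR adjusted p between 0.937 and 0.970). There too 0 of the 5 passed by any of the 3 tools, and 0 had an unadjusted edgeR p under 0.05 (9.27% of all genes had one), beside 0.311% of all genes called higher and 1.41% called lower in solvent females.

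**Figure D2:**
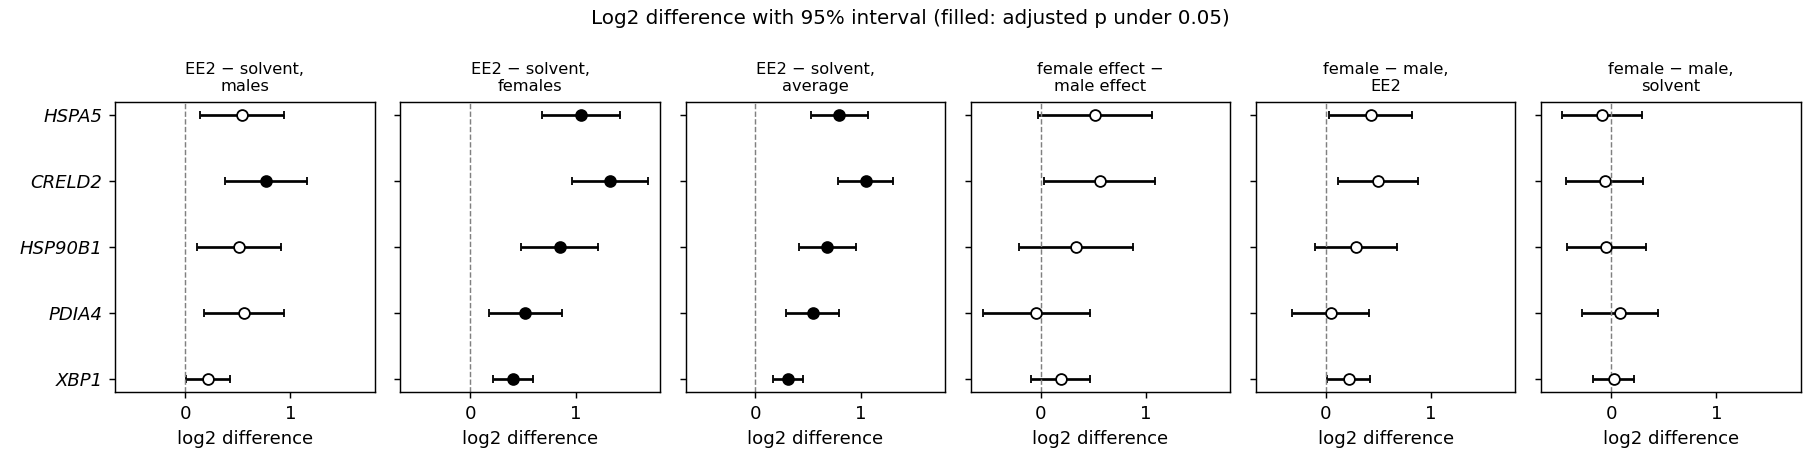
Log2 difference of each gene in the 6 comparisons, with its 95% interval; filled points have an edgeR adjusted p under 0.05 and the dashed line marks no difference. Points are filled for CRELD2 in males, for all 5 genes in females and for all 5 in the average, and for none in the 3 panels that compare the sexes.

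Among females, the spread between embryos of a group was wider after EE2 than after solvent for 4 of the genes and not for XBP1. The coefficient of variation of HSPA5 was 29.7% in EE2 females, against 9.96% in solvent females, or 6.14% without solvent female 3. HSP90B1 had 31.3% in EE2 females, against 9.44% in solvent females, or 2.04% without solvent female 9. CRELD2 had 27.6% in EE2 females, or 12.8% without replicate 7, against 8.65% in solvent females. PDIA4 had 29.0% in EE2 females, or 20.7% without replicate 8, against 11.8% in solvent females, or 4.16% without solvent female 9. XBP1 had a coefficient of 6.04% in EE2 females and 12.4% in solvent females. Among males the spread turned on EE2 male replicate 3. For HSPA5 it was 25.6% in EE2 males and 2.89% without replicate 3, against 8.85% in solvent males. For HSP90B1 it was 18.2% in EE2 males and 3.86% without replicate 3, against 11.9% in solvent males. For CRELD2, PDIA4 and XBP1 too, the coefficient of the EE2 males was above that of the solvent males with replicate 3 and below it without. The summed level of the 5 genes was 4684 ± 1334 CPM in EE2 females (SD, n = 6, range 3196 to 6891) and 3801 ± 723 CPM in EE2 males (n = 4, 2725 to 4254). It was 2567 ± 229 CPM in solvent females (n = 5) and 2625 ± 274 CPM in solvent males (n = 5). Leaving out embryos here was chosen after the data were seen, and the difference in spread was not tested. The share of all genes with a wider spread after EE2 was not computed, so nothing particular to these genes is read from it.

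Single EE2 embryos can be followed through the 5 genes by their log2 distance from the mean of the solvent embryos of their sex. EE2 female replicate 7 was the highest embryo for the 4 chaperone and folding enzyme genes, at 1.94 for CRELD2, 1.64 for HSPA5, 1.43 for HSP90B1 and 1.03 for PDIA4. Its XBP1 lay at 0.41, in the middle of the EE2 females. EE2 female replicate 8 was the reverse, with HSP90B1 at 0.11 and PDIA4 at -0.27, both the lowest of the 6 females, and XBP1 at 0.51. Its CRELD2, at 0.83, was also the lowest of the 6, and its HSPA5, at 0.76, was above that of replicate 10 alone, at 0.64. Both still stood above every solvent female. EE2 male replicate 3 lay inside the solvent range for 4 of the genes, at 0.25 for CRELD2, 0.07 for HSP90B1, -0.05 for XBP1 and -0.15 for HSPA5. Its PDIA4, at 0.30, stood above every solvent male. The other 3 EE2 males lay between 0.48 and 1.05 for the 4 chaperone and folding enzyme genes and between 0.23 and 0.40 for XBP1.

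**Figure D3:**
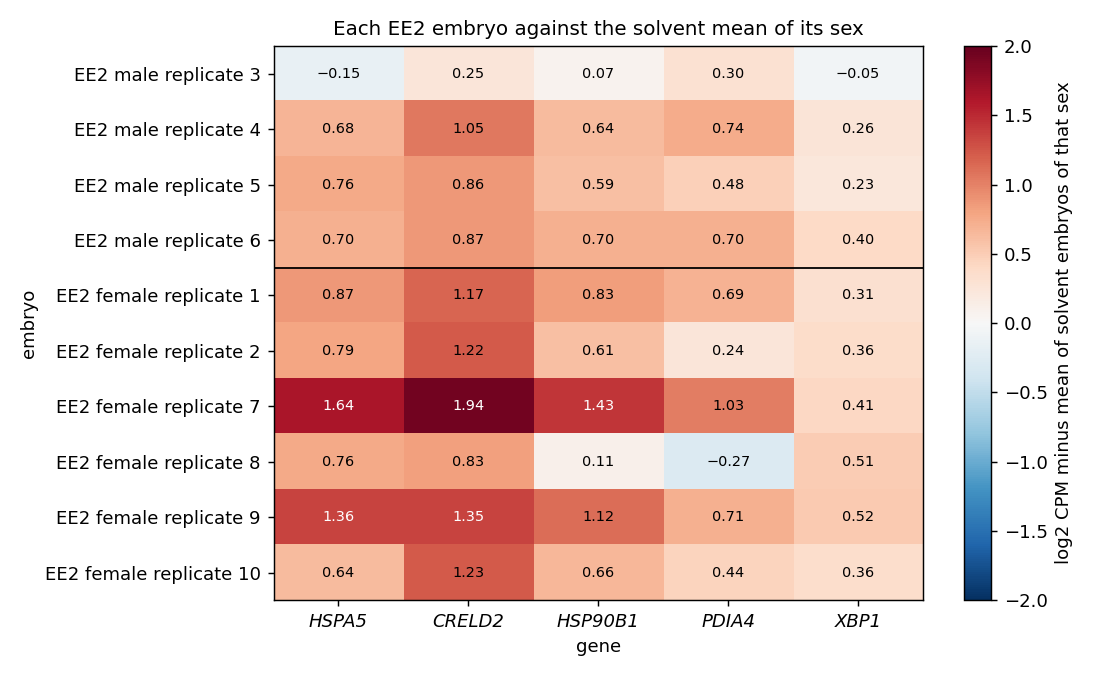
Log2 CPM of each gene in each EE2 embryo (rows, with males above the line) minus the mean of the solvent embryos of the same sex; red is higher and blue lower than that mean, and the number is printed in each cell. EE2 female replicate 7 holds the 4 darkest values of its columns, and the row of EE2 male replicate 3 stays between -0.15 and 0.30.

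Whether the genes moved by equal amounts was tested by the log2 ratio of a pair within each library, which does not depend on library scaling. This comparison was added after the data were seen. The ratios share genes, so they are not independent of each other. The share of differing ratios among pairs of all genes was not computed. Nothing particular to these genes is therefore read from the counts below. In females, 6 of 10 ratios differed between EE2 and solvent (exact two-sided permutation test, Benjamini-Hochberg over 20 ratios). CRELD2 rose relative to PDIA4 by 0.81 (exact p = 0.00216, the smallest 462 arrangements allow, adjusted p = 0.0216), relative to XBP1 by 0.88 and relative to HSP90B1 by 0.49 (exact tests, both adjusted p = 0.0216). HSPA5 rose relative to XBP1 by 0.60 (exact test, adjusted p = 0.026) and relative to PDIA4 by 0.54 (exact test, adjusted p = 0.0361). HSP90B1 rose relative to PDIA4 by 0.32 (exact test, adjusted p = 0.0216). The ratio of PDIA4 to XBP1 differed by 0.06 (exact test, adjusted p = 0.859) and that of HSPA5 to CRELD2 by -0.28 (exact test, adjusted p = 0.0758). In males, 1 of 10 ratios passed, CRELD2 to HSP90B1, higher by 0.25 in EE2 males (exact test, p = 0.0159, adjusted p = 0.0454). The adjustment ran over female and male ratios together, so this male call rests on the small p-values of the female ratios. An adjustment over the male ratios alone was not made. The male ratio did not pass without any one male embryo, where fewer arrangements raise the smallest p that can be reached. Of the female ratios, 5 to 7 passed without any one female embryo.

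Across embryos, most pairs of the chaperone and folding enzyme genes were correlated, and none of these genes was shown to be correlated with XBP1. The share of correlated pairs among all genes was not computed, so nothing particular to these genes is read from the counts below. Correlations were computed within the 10 EE2 and within the 10 solvent embryos, on log2 CPM centred on the mean of each sex, with permutation tests adjusted over 10 pairs. HSP90B1 and PDIA4 had r = 0.95 and rho = 0.89 in EE2 embryos (n = 10, permutation p = 9e-05 and 0.00096, adjusted p = 0.0009 and 0.0095). In solvent embryos they had r = 0.93 and rho = 0.94 (n = 10, permutation p = 0.00546 and 0.00604, adjusted p = 0.0137 and 0.0188). HSPA5 and CRELD2 had r = 0.87 and rho = 0.79 in EE2 embryos (permutation p = 0.00712 and 0.0178, adjusted p = 0.0142 and 0.0412). In solvent embryos they had r = 0.82 and rho = 0.77 (permutation p = 0.00261 and 0.0157, adjusted p = 0.0131 and 0.0262). By r, 5 of 10 pairs passed in EE2 embryos and 6 of 10 in solvent embryos, all of them among HSPA5, CRELD2, HSP90B1 and PDIA4. HSPA5 with PDIA4 did not pass by r in EE2 embryos (r = 0.69, permutation test, adjusted p = 0.05002), but passed by rho (0.75, permutation test, adjusted p = 0.0412). With DESeq2 size factors 6 pairs passed by r in EE2 embryos, so no difference between the treatments is read from these counts. XBP1 passed with none of the other 4, with r between 0.12 and 0.63 in EE2 embryos and between -0.23 and 0.00176 in solvent embryos.

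Without the 2 embryos farthest from the median of the first gene of each pair, 1 pair passed in EE2 embryos, HSP90B1 with PDIA4 (r = 0.85, permutation test, adjusted p = 0.0372), and 0 passed in solvent embryos. Only 8 embryos remain in each of these tests, and r among the 4 chaperone and folding enzyme genes then lay between 0.54 and 0.86 in EE2 embryos and between 0.73 and 0.88 in solvent embryos. XBP1 with HSP90B1 in EE2 embryos had r = 0.89 without the 2 embryos farthest from the median of HSP90B1 (permutation test, adjusted p = 0.105) and r = 0.33 with all 10 (permutation test, adjusted p = 0.334).

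**Figure D4:**
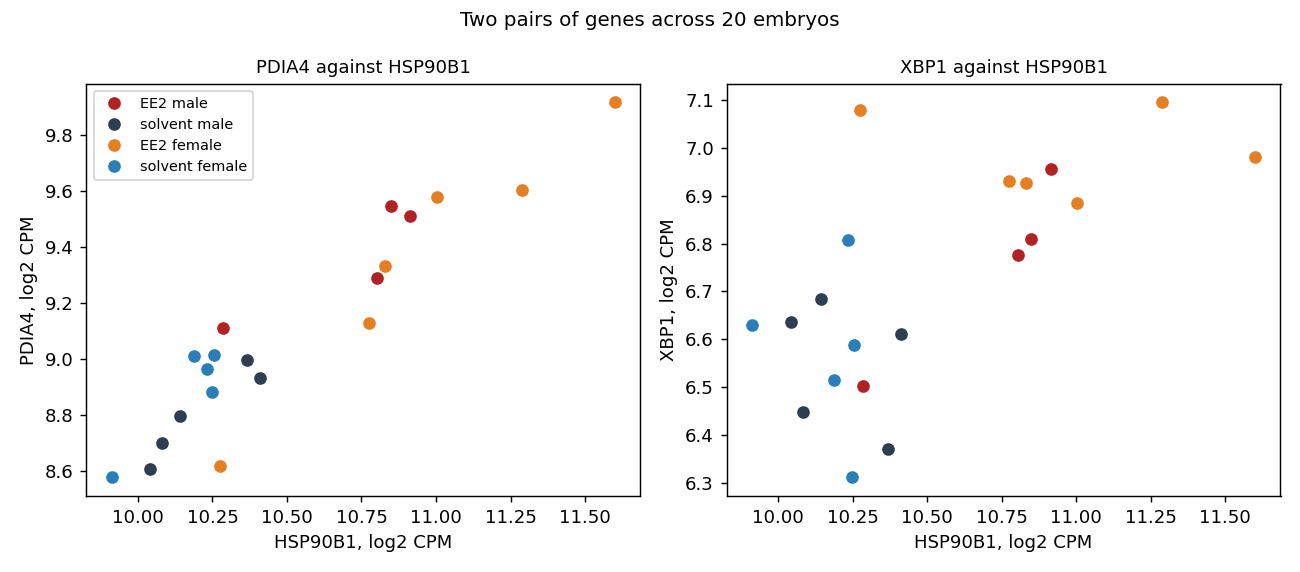
Log2 CPM of PDIA4 (left) and of XBP1 (right) against log2 CPM of HSP90B1 in the 20 embryos, coloured by group. PDIA4 follows HSP90B1 within both treatments (r = 0.95 in EE2 and 0.93 in solvent embryos, sex means removed), and XBP1 does not in solvent embryos (r = -0.23).

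Genes that varied most like the 5 were ranked by their mean r with them over the 20 libraries, with group means removed, as a description. The 5 most alike genes were HERPUD1 (mean r = 0.75), which recruits the degradation machinery, HYOU1 (0.73), an Hsp70-like partner of BiP, DERL3 (0.72), a channel component of degradation, SSTR1 (0.71), a somatostatin receptor, and RPN2 (0.69), a subunit of the enzyme that adds sugar chains to proteins in the endoplasmic reticulum. HERPUD1 tracked HSPA5 most closely (r = 0.90) and XBP1 least (r = 0.59). HYOU1 and DERL3 tracked HSP90B1 (r = 0.92 and 0.89) and hardly XBP1 (r = 0.20 and 0.26). These libraries share their scaling, and low r values among 20 libraries carry wide error.

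Other genes of the same pathways moved in part. Beside the 5 genes, 6 lists of endoplasmic reticulum folding and stress genes held 86 names, of which 74 were tested. These lists too were chosen with earlier results of these data known, so the shares below are a description. Averaged over the sexes, 36 rose and 3 fell by edgeR (48.6% and 4.05%, beside 10.3% and 10.3% of all genes), with a median log2 fold change of 0.21 against 0.01 for all genes. In females 24 rose and 2 fell (32.4% and 2.70%, beside 10.2% and 10.1%), with a median of 0.19. In males 4 rose and 1 fell (5.41% and 1.35%, beside 2.24% and 1.03%), with a median of 0.23. The male count was 2 without EE2 male 4, 5 or 6 or solvent male 4, 3 without solvent male 7 or solvent female 6, and 9 without EE2 male 3, each counting both directions. Without EE2 male 3, the count over all genes went up as well, from 441 to 647. The female and male medians over the 74 genes together differed little although the counts of calls differed. Medians of a single list could lie further apart, as given below for the targets of PERK and ATF4.

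Beside 10.3% and 10.3% of all genes, 5 of 10 tested partners of HSPA5 and HSP90B1 rose in the average and 0 fell. They included HYOU1 (log2 fold change 0.49, SE 0.108, edgeR adjusted p = 0.00297), DNAJC3, a cochaperone of BiP (0.39, SE 0.0936, adjusted p = 0.00635), DNAJC10, a cochaperone that also reduces disulfides (0.34, SE 0.0697, adjusted p = 0.00154), and the secreted stress-response factor MANF (0.47, SE 0.136, adjusted p = 0.0201). MANF was at 178 ± 25.8 CPM in EE2 males and 185 ± 48.5 CPM in EE2 females, against 129.8 ± 30.0 CPM in solvent males and 133 ± 21.3 CPM in solvent females (SD, n = 4, 6, 5 and 5). SEC63, which brings BiP to the translocation channel, was at 0.19 and did not pass (edgeR adjusted p = 0.0818). It passed without EE2 male 3 (0.23, adjusted p = 0.0456), EE2 female 8 or solvent female 6, and with upper-quartile scaling (0.22, adjusted p = 0.0486).

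Among the relatives of PDIA4 and CRELD2, disulfide isomerases and proline isomerases, 10 of 19 tested rose in the average and 1 fell. These are 52.6% and 5.26%, beside 10.3% and 10.3% of all genes. TXNDC5 (0.46, SE 0.115, edgeR adjusted p = 0.00758) and ERP44, which retains clients in the early secretory pathway (0.24, SE 0.0484, adjusted p = 0.00144), were among those that rose, as were the proline isomerases FKBP9 (0.45) and FKBP14 (0.40). PDIA5, another protein disulfide isomerase, was the one that fell, by 0.36 on the log2 scale (SE 0.0917, adjusted p = 0.00827). It was at 88.6 ± 17.4 CPM in EE2 males and 93.4 ± 14.3 CPM in EE2 females, against 119 ± 14.4 CPM in solvent males and 115 ± 13.8 CPM in solvent females. PDIA4 and PDIA5, of the same enzyme family, thus moved in opposite directions.

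Lectin chaperones bind sugar chains of unfolded glycoproteins, and 3 of 7 tested genes of this system rose in the average and 0 fell. The shares of 42.9% and 0% stand beside 10.3% and 10.3% of all genes. CALR, which encodes calreticulin, rose by 0.43 (SE 0.097, edgeR adjusted p = 0.00343), while its membrane-bound relative CANX, calnexin, was at 0.04 (SE 0.074, adjusted p = 0.747). LMAN1, a cargo receptor for glycoproteins leaving the compartment, had 274 ± 26.4 CPM in EE2 females and 403 ± 34.9 CPM in EE2 males, against 276 ± 31.7 CPM in solvent females and 296 ± 37.5 CPM in solvent males. Its averaged rise of 0.22 (edgeR adjusted p = 0.0368) was lost without EE2 male 3 (0.21, adjusted p = 0.0550), solvent female 9 (0.18, adjusted p = 0.0602) or any one of 8 other embryos. The log2 difference between EE2 females and EE2 males was -0.56 (SE 0.101, adjusted p = 0.00178). The female effect of EE2 on LMAN1 minus the male one, -0.46, did not pass (adjusted p = 0.13). Among the other genes of the 6 lists, 3 differed between EE2 females and EE2 males, namely LMAN1 and the higher GDF15 and ATF3, and without EE2 male 3 the number was 1. The shares of 2.70% higher and 1.35% lower stand beside 2.21% and 4.25% of all genes, so nothing particular to the lists is read from the count.

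Genes of degradation, which removes proteins that fail to fold, rose in 9 of 15 cases in the average and fell in 0. The shares were 60% and 0%, beside 10.3% and 10.3% of all genes. HERPUD1 (0.74, SE 0.147, edgeR adjusted p = 0.00127) and DERL3 (0.73, SE 0.132, adjusted p = 0.00058) showed the highest values, close to that of HSP90B1. The ubiquitin ligase SYVN1 (0.30), its partner SEL1L (0.23), the mannosidase-like EDEM1 (0.32) and the lectin ERLEC1 (0.24) rose by less. DERL3 was at 35.3 ± 8.33 CPM in EE2 males and 42.5 ± 11.9 CPM in EE2 females, against 21.7 ± 3.996 CPM in solvent males and 25.02 ± 2.34 CPM in solvent females.

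Among other sensors and transcription factors of the stress response beside XBP1, 4 of 11 tested rose in the average and 1 fell. These are 36.4% and 9.09%, beside 10.3% and 10.3% of all genes. The median averaged log2 fold change of the 11 was -0.02, against 0.01 for all genes, and 5 of the 11 were above 0. The list as a whole was thus not shifted upward. CEBPB, a basic leucine zipper factor, was at 183 ± 24.4 CPM in EE2 males and 163 ± 16.3 CPM in EE2 females, against 79.3 ± 12.4 CPM in solvent males and 78.4 ± 10.8 CPM in solvent females. It rose by 1.21 in males (SE 0.125, edgeR adjusted p = 4.28e-06) and by 1.06 in females (SE 0.115, adjusted p = 3.56e-06). EIF2AK3, which encodes the sensor PERK, rose by 0.55 in the average (SE 0.095, adjusted p = 0.000408). ATF3, induced by many stresses, rose by 2.81 in females (SE 0.404, adjusted p = 7.11e-05) and was at 1.12 in males (SE 0.416, adjusted p = 0.165), with a female minus male effect of 1.69 that did not pass (adjusted p = 0.166). CREB3L3, a liver factor that is activated by cleavage after leaving the endoplasmic reticulum, fell by 0.84 on the log2 scale in the average (SE 0.099, adjusted p = 6.3e-06).

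The targets of PERK and ATF4, the branch that slows translation, rose in 5 of 12 cases in the average and fell in 1. The shares were 41.7% and 8.33%, beside 10.3% and 10.3% of all genes. In males 0 rose and 0 fell, beside 2.24% and 1.03% of all genes, and the median log2 fold change was 0.003. In females 3 rose and 1 fell (25% and 8.33%, beside 10.2% and 10.1% of all genes), with a median of 0.50. The difference between these medians was not tested. GDF15, a secreted stress factor, was at 9.45 ± 2.86 CPM in EE2 females and 3.03 ± 1.48 CPM in EE2 males, against 1.86 ± 0.995 CPM in solvent females and 2.88 ± 0.984 CPM in solvent males (SD, n = 6, 4, 5 and 5). Its EE2 effect differed between the sexes by 2.25 on the log2 scale (SE 0.513, edgeR adjusted p = 0.0417). No other of the 74 list genes passed (1.35% higher and 0% lower, beside 0.259% and 0.8% of all genes), and nothing about the lists is read from a count of 1. The number of such genes was 0 in 15 of 20 fits that left out 1 embryo, and 1 in those without EE2 female 1, EE2 male 5, solvent male 1 or solvent female 3 or 9. PHGDH, the first enzyme of serine synthesis, fell by 0.55 (SE 0.111, adjusted p = 0.00158), while PSAT1, which acts after it in the same pathway, rose by 0.69 (SE 0.194, adjusted p = 0.0164).

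Chaperones outside the endoplasmic reticulum were read beside them. Of 25 cytosolic chaperone genes tested, 6 rose and 0 fell in females (24% and 0%, beside 10.2% and 10.1% of all genes, median log2 fold change 0.12), and 1 rose and 3 fell in males (4% and 12%, beside 2.24% and 1.03%, median -0.05). The male rise was that of BAG3. It was lost with limma voom (0.70, adjusted p = 0.0555), and in edgeR with male libraries alone (0.69, adjusted p = 0.163) or without most single embryos. In the average, 2 of the 25 rose and 1 fell (8% and 4%, beside 10.3% and 10.3% of all genes). Of 11 mitochondrial genes, 1 rose and 2 fell in the average (9.09% and 18.2%, beside the same shares), 0 rose and 1 fell in females, and 0 rose and 0 fell in males, all by edgeR. With upper-quartile scaling the averaged falls of HSPA8 (-0.24, edgeR adjusted p = 0.0619) and TRAP1 (-0.21, adjusted p = 0.0536) were lost. Both were also lost without most single embryos. The averaged rise of CCT2 was lost without EE2 male 6 (0.21, edgeR adjusted p = 0.0642), and that of HSCB without EE2 male 4 (0.17, adjusted p = 0.0506). HSP90AA1, the inducible cytosolic relative of HSP90B1, had 893 ± 197 CPM in EE2 females and 539 ± 77.1 CPM in EE2 males, against 809 ± 123 CPM in solvent females and 845 ± 80.4 CPM in solvent males. It fell by 0.65 on the log2 scale in males (SE 0.157, edgeR adjusted p = 0.0249), a call that was lost without EE2 male 4 or 5 or solvent male 7 or 8. In females its log2 fold change was 0.14 (SE 0.14, adjusted p = 0.53), and the female minus male effect, 0.79, did not pass (adjusted p = 0.0733). HSPA8, the constitutive cytosolic relative of HSPA5, was at -0.54 in males (SE 0.139, adjusted p = 0.0363) and at 0.01 in females (SE 0.124, adjusted p = 0.98), and its male call was lost without EE2 male 3, 4 or 5 or solvent male 2, 7 or 8.

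**Figure D5:**
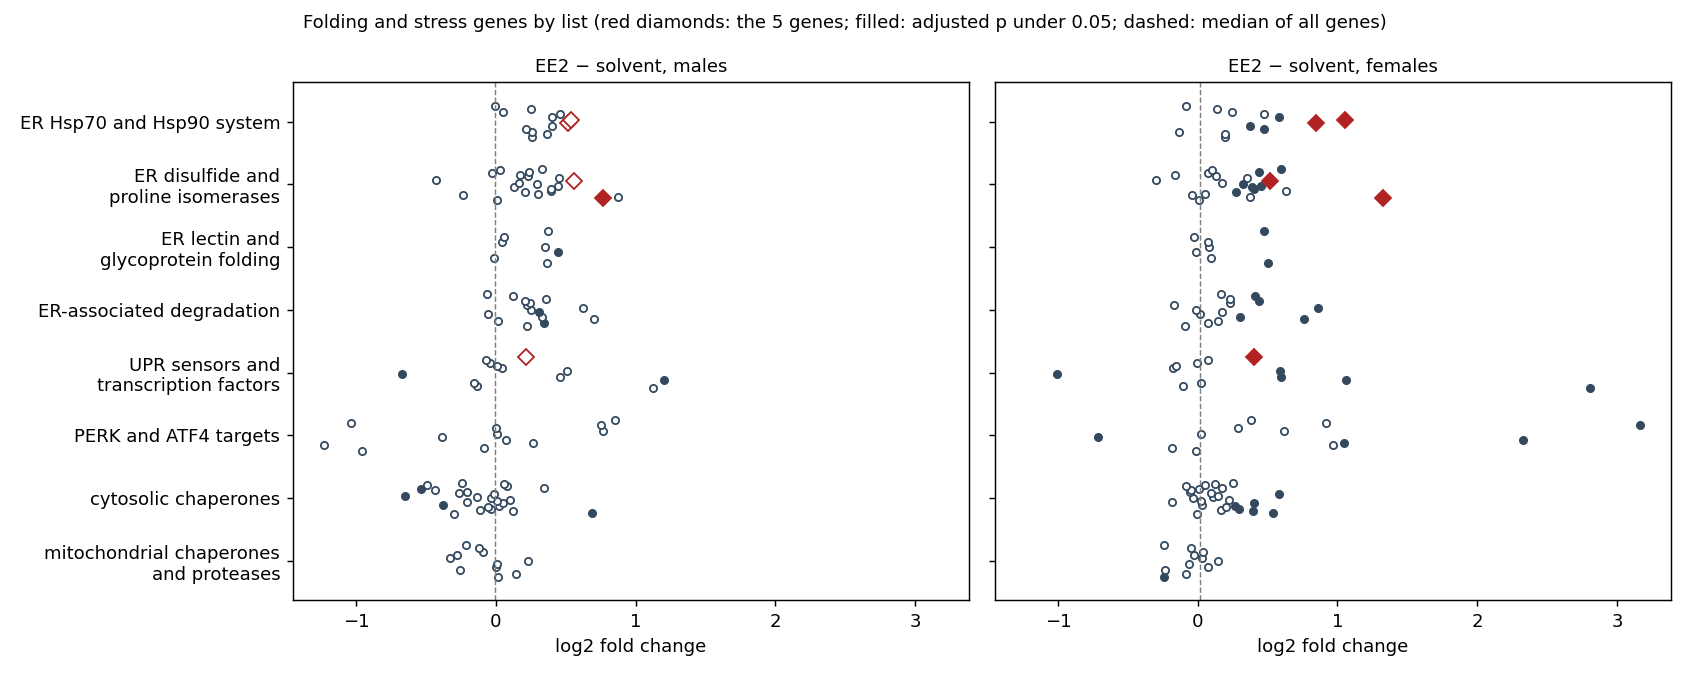
Log2 fold change of each tested gene of 8 folding and stress lists, EE2 against solvent, in males (left) and females (right); red diamonds are the 5 genes described, filled symbols have an edgeR adjusted p under 0.05, and the dashed line is the median of all genes. In the female panel all 5 diamonds are filled, and in the male panel 1 is, that of CRELD2.

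Markers of the tissue and of other cells were read in the same libraries. All 9 hepatocyte markers in the table were present in every library. Their summed level was 154666 to 244051 CPM in EE2 males and 82634 to 146785 CPM in EE2 females, against 136168 to 212195 CPM in solvent males and 185683 to 287309 CPM in solvent females. In females 1 of the 9, APOB, was called higher and 7 were called lower, ALB and HNF4A among them. In males 1 of the 9 was called higher and 2 lower. Over all genes, 10.2% were called higher and 10.1% lower in females, and 2.24% and 1.03% in males. These shares stand beside the calls of every marker list here. Markers of plasma and B cells, and the few pancreatic acinar markers in the table, were at or near 0. The 7 plasma and B cell markers summed to at most 2.08 CPM in any library, with PAX5, CD79B and IRF4 at 0 in 13, 14 and 15 of the 20 libraries. Of 12 pancreatic acinar markers listed, only 3 were in the table, so little is read about acinar cells. These 3 summed to at most 3.41 CPM, with CEL and PTF1A at 0 in 17 and 16 libraries. The 5 striated muscle markers summed to 14.1 to 248 CPM in EE2 males and 3.89 to 18.1 CPM in EE2 females, against 16.9 to 27.1 CPM in solvent males and 12.6 to 46.5 CPM in solvent females, and 3 of them were called higher in males. In females 0 were called higher and 1 lower. All 5 were called lower in EE2 females than in EE2 males, beside 4.25% of all genes. Of 5 cholangiocyte markers tested, SPP1 (log2 fold change 2.40, edgeR adjusted p = 2.59e-05) and SOX9 (1.86, adjusted p = 0.000604) rose in females and EPCAM fell by 0.60 (adjusted p = 0.00187), while 0 were called in males. These markers summed to 128 to 161 CPM in EE2 males and 121 to 240 CPM in EE2 females, against 121 to 159 CPM in solvent males and 145 to 176 CPM in solvent females. Of 10 mesenchymal and stellate markers tested, ACTA2 (0.71, adjusted p = 0.0289) and DCN (0.49, adjusted p = 0.0168) rose in females and RELN fell by 0.86 (adjusted p = 0.000792, edgeR), while 0 were called in males. Their sum was 2213 to 4292 CPM in EE2 males and 2372 to 4472 CPM in EE2 females, against 2533 to 3330.1 CPM in solvent males and 1965 to 3151 CPM in solvent females. Of 3 kidney markers tested, CUBN rose in females by 3.35 (edgeR adjusted p = 0.00908) and was at 3.16 in males (adjusted p = 0.0728), with summed levels of 13.6 to 38.6 CPM in EE2 males and 13.8 to 56.3 CPM in EE2 females, against 10.2 to 38.9 CPM in solvent males and 14.3 to 39.3 CPM in solvent females. Markers of macrophages, endothelium and erythroid cells gave 0 calls in females and 0 in males. The part of any of these markers in the results above was not tested.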

How the data were processed

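Per the submitters' processing notes, the authors used kallisto, with its version, transcript set and genome build not given in the sources used here. For 40934 coding sequences, estimated counts were deposited by the authors in 2 tables with identical values and different identifiers. kallisto can split a read among sequences, so only 52.64% of the values were whole, and HSPA5 has 2 coding rows with identical values, summed here. Counts were summed per gene (16066 genes, all matched to symbols of the NCBI assembly Coturnix japonica 2.1), rounded, filtered with filterByExpr (minimum count 10, minimum total 15; 2565 genes removed, 99.9837% of counts kept) and tested with edgeR 4.0.16 in R 4.3.3. The test was the robust quasi-likelihood test (two-sided) on TMM-scaled libraries, in 1 fit of all 20 libraries with a mean per group (biological coefficient of variation 0.245). Benjamini-Hochberg adjustment ran over all 13501 genes, with a threshold of 0.05. SEs were derived from the F statistics. A prior count of 2 entered log2 CPM in the correlations, the principal component, the ranking of alike genes and the check of same-numbered embryos. Distances per embryo, ratios of pairs and the plotted log2 CPM used no prior count. Alternatives used limma 3.58.1 and DESeq2 1.42.0, and permutation tests used scipy 1.17.1 with 100000 resamples or full enumeration. The fit was tested on simulated data.

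No 2 libraries were identical, and sequencing batches are not given in the sources used here. Members and gene lists were chosen with earlier results of these data known. Named list genes were those with the smallest p in the average, up to 6 per endoplasmic reticulum list and 4 per other list, plus list genes called in a comparison of the sexes, and the 5 most alike genes with a name. Not all of them are described. A planned search of promoters and levels per length were not made, since sequences and lengths were not used here.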

Additional observations from a re-analysis of the deposited data

Results flagged for a closer look

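Among 20 combinations of gene and group, the highest or lowest embryo stood far from the rest of its group in 2 by Dixon's test, where chance gives about 1 in 20. HSPA5 in EE2 male replicate 3 was at 686 CPM, while the other 3 EE2 males lay between 1220.05 and 1290.3 CPM, a gap of 0.884 of the range of the group above the critical value for 4 samples. HSP90B1 in solvent female replicate 9 was at 963 CPM, while the other 4 solvent females lay between 1167 and 1222 CPM, a gap of 0.789 of the range above the critical value for 5 samples. That library was also the shallowest. The EE2 effect on GDF15 differed between the sexes by 2.25 on the log2 scale by the test of the difference itself (SE 0.513, edgeR adjusted p = 0.0417), with 9.45 ± 2.86 CPM in EE2 females and 3.03 ± 1.48 CPM in EE2 males, against 1.86 ± 0.995 CPM in solvent females and 2.88 ± 0.984 CPM in solvent males. That call was lost in most fits that left out 1 embryo, as given above, and with a replicate block.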

How the results depend on the processing

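Other size factors, upper-quartile scaling, no filter, a stricter filter, limma voom and the table with protein identifiers left the counts of the 5 genes called as they were in all 6 comparisons. In males 1 gene was called, against 2 with DESeq2 and 2 without both EE2 male 3 and solvent female 9, an alternative added after seeing the data, and 0 to 2 without any one embryo. List genes called numbered 5 in males, against 12 with DESeq2, 3 with no filter, 3 with male libraries alone, 11 without both libraries and 2 to 9 without any one embryo. All genes called in males numbered 441, against 768 with DESeq2 and 195 with male libraries alone. They numbered 677 without both libraries and 234 to 647 without any one embryo. List genes whose effect differed between the sexes numbered 1, against 3 with DESeq2, 0 without both libraries and 0 to 1 without any one embryo. Those that differed between EE2 females and EE2 males numbered 3, against 6 with DESeq2, 6 with EE2 libraries alone and 1 to 4 without any one embryo. Correlated pairs numbered 5 in EE2 and 6 in solvent embryos, against 1 and 0 without the 2 farthest embryos, where 8 embryos remain and r among the 4 genes was 0.54 to 0.86 in EE2 and 0.73 to 0.88 in solvent embryos. The male ratio that passed (1), adjusted together with the female ratios, went to 0 without any one embryo, where the arrangements are fewer. The cause of these changes was not tested.

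Signs turned for values near 0. Over fits without 1 embryo or without both libraries, the female minus male effect on PDIA4 was -0.1895 to 0.0781 and its difference between EE2 sexes -0.08 to 0.1627. Differences between solvent sexes were -0.1279 to 0.0179 for CRELD2, -0.0847 to 0.0148 for HSP90B1 and -0.0396 to 0.084 for XBP1. In males GDF15 was at -0.1539 to 0.2647, and at -0.0112 with limma voom. In females LMAN1 was at -0.0785 to 0.0249, and at 0.0155 with upper-quartile scaling, and HSPH1 at -0.0464 to 0.1191. CLPX in the average was at -0.0032 to 0.0616. Without both libraries, PDIA4 between EE2 sexes was at -0.0341.

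Replicate numbers recur across groups, but the labels do not say that a number marks a shared batch, and deviations from group means of same-numbered embryos correlated between -0.018 and 0.136, over 0.1 for 2 of 10 numbers, so they are not taken as pairs. Only number 4 joins an EE2 male with a solvent male, and only numbers 9 and 10 join EE2 and solvent females. A replicate block therefore leaves few direct comparisons within a sex. With it, all genes called went from 441 to 52 in males and from 2737 to 877 in females. With a replicate block, 0 of the 5 genes were called in males, 2 in females (CRELD2 at 1.23, adjusted p = 0.038, and XBP1 at 0.52, adjusted p = 0.0307) and 5 in the average, all by edgeR. Why calls were lost was not tested. The female values that did not pass were 0.99 for HSPA5 (adjusted p = 0.0668), 0.84 for HSP90B1 (adjusted p = 0.123) and 0.58 for PDIA4 (adjusted p = 0.230). The replicate block gave 1 list gene in males, 7 in females and 0 in both the sex comparison of effects and that of EE2 embryos. Among list genes described above as rising in the average, MANF (0.45, edgeR adjusted p = 0.0841) and SYVN1 (0.28, adjusted p = 0.0583) did not pass with the block. Nor did SEL1L (0.22, edgeR adjusted p = 0.0719) and LMAN1 (0.22, adjusted p = 0.0875). Outside the endoplasmic reticulum, the averaged rises of CCT2 (0.26, edgeR adjusted p = 0.0663) and HSCB (0.18, adjusted p = 0.07) were lost too. So was the averaged fall of TRAP1 (-0.23, edgeR adjusted p = 0.085). The block put the female minus male effect on PDIA4 at 0.1493, the solvent sex difference of CRELD2 at 0.0716 and of XBP1 at -0.0511, and GDF15 in males at -0.283.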
